A study of Mus musculus with 8 samples.

Results

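The 31 genes described here mark the B lineage, from the receptor and enzymes of its earliest precursors to the surface and secretory proteins of mature B cells and plasma cells. They were taken by name from the gene column of 8 deposited count tables, with immunoglobulin segments left out, and all 31 were found among the 27710 genes listed in every table. Each was then followed through the individual libraries, through the same-numbered pairs of genotypes and by the stage or role at which it acts.

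The libraries were made from mouse bone marrow cells depleted of mature lineage cells and grown in culture with stem cell factor, thrombopoietin, Flt3 ligand and interleukin-3. In one genotype, Vav-iCre+; Alkbh5fl/fl (called Alkbh5-deficient here), both copies of Alkbh5, an RNA demethylase of N6-methyladenosine, are flanked by loxP sites and the recombinase is driven by the Vav promoter, which is active in blood cells generally. The other genotype is labelled WT, with no floxed allele or Cre named. Of the 4 libraries of a genotype, 3 were from cells given 4-thiouridine (s4U), a nucleoside that marks newly made RNA, at 100 µM for 2 h (fed), and 1 is labelled as having received no agent (unlabelled). No age or sex of animals is given, and the labels do not tie libraries to individual animals. The p-values thus reflect the spread among these libraries, part of which may be technical. Xist and Ddx3y counts, given below, set fed library 2 apart from fed libraries 1 and 3 in both genotypes. The question the fed libraries address is whether the RNA of these genes differs when Alkbh5 is lost.

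Between 5723245 and 8615997 reads per library were assigned to genes. Alkbh5 itself had 1061 to 1479 counts in the 4 WT libraries and 0 or 1 count in the 4 deficient ones, so the libraries match their genotype labels. Both fed libraries numbered 1 differed from the other 6 in their makeup: reads in no gene were 38.3% (WT) and 37.6% (deficient) of all entries there and 48.9 to 52.1% elsewhere. The libraries numbered 2 held Xist RNA and no Ddx3y counts in both genotypes, those numbered 1 and 3 held at least 200 Ddx3y counts and at most 2 Xist counts, and the unlabelled libraries held both. In WT fed library 3 the ribosomal repeat transcript Gm26917 took 14.2% of gene counts, against 6.33 to 8.34% in the others. Of the marker lists, 6 stem and progenitor genes summed to 239.5 to 358 CPM (gene counts scaled to a common library size), 16 T and NK cell genes to 68.7 to 138 CPM and 8 neutrophil and monocyte genes to 4374 to 11460 CPM. No gene of these 3 lists was at 0 in any library.

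B cells arise from lymphoid progenitors that respond to interleukin-7 through Il7r and begin to rearrange immunoglobulin genes with the Rag1 and Rag2 recombinase. The factors Tcf3, Foxo1, Ebf1 and Pax5 act in a cascade that switches on B lineage genes and holds the cells in that lineage. Pro-B cells that rearrange a heavy chain display it with the surrogate light chain (Igll1 and Vpreb proteins) and the signalling pair Cd79a and Cd79b as the pre-B cell receptor, whose signal passes through Blk, Btk and Blnk.

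Levels of the members spanned a wide range when divided by exon length. Jchain, the joining chain of secreted antibodies, was highest with a mean over 8 libraries of 191 CPM per kb, followed by the small surface protein Cd24a at 122 and the E protein Tcf3 at 58.6 CPM per kb. Btk (18.6 CPM per kb), Cd79b (14.4), Dntt (11.8) and Cd79a (10.2) came next. Most others lay below 10 CPM per kb, down to Rag2 at 0.427 CPM per kb. Of the 31 members, 26 had a mean of at least 5 CPM. Below that mean were Rag2, Igll1, Vpreb1, Vpreb2 and Ms4a1. Several high members are not limited to B cells: Cd24a is also present on erythroid and myeloid precursors, Btk in myeloid cells, and Tcf3 in most progenitors.

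No member passed the test between genotypes in the fed libraries. Of the 31 genes, 29 had enough counts for edgeR's quasi-likelihood test, and 0 had a Benjamini-Hochberg adjusted p under 0.05, where 0.0075% of the 13342 genes tested (Alkbh5 itself) did. The smallest adjusted p of the members was 1. No member had an unadjusted p under 0.05 either (1.13% of all genes), and DESeq2 called 0 members and 0.015% of all genes. The median log2 fold change of the 29 (deficient over WT) was -0.195, with 21 of 29 below 0, beside a median of 0.00115 over all genes, 49.8% of which were below 0. This lean rested on single libraries: without WT fed library 2 the median was 0.21 and without deficient fed library 1 it was 0.059. The fitted values ran from -0.74 ± 0.77 (SE) for Blk to 0.25 ± 0.72 (SE) for Lef1. In bulk RNA of this kind, fewer cells of a type and less RNA per cell cannot be told apart.

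Deviations from the genotype mean correlated between same-numbered libraries of the 2 genotypes, at 0.656 for number 1. Numbers 2 and 3 were not set apart, at 0.340 and 0.203 beside 0.299 and 0.280 across these numbers. The difference was also fitted with the replicate number as a block. That fit called 0 members, with a smallest adjusted p of 0.939 in edgeR and a median log2 fold change of -0.217. Unadjusted p was under 0.05 for 4 of 29 members (Ly6d, Blk, Spib and Cd72, all lower in the deficient libraries), where 2.65% of all genes reached that. The block reduced the standard error of many members, from 1.05 to 0.34 for Ebf1 on the log2 scale and from 0.88 to 0.35 for Pax5.

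**Figure D1:**
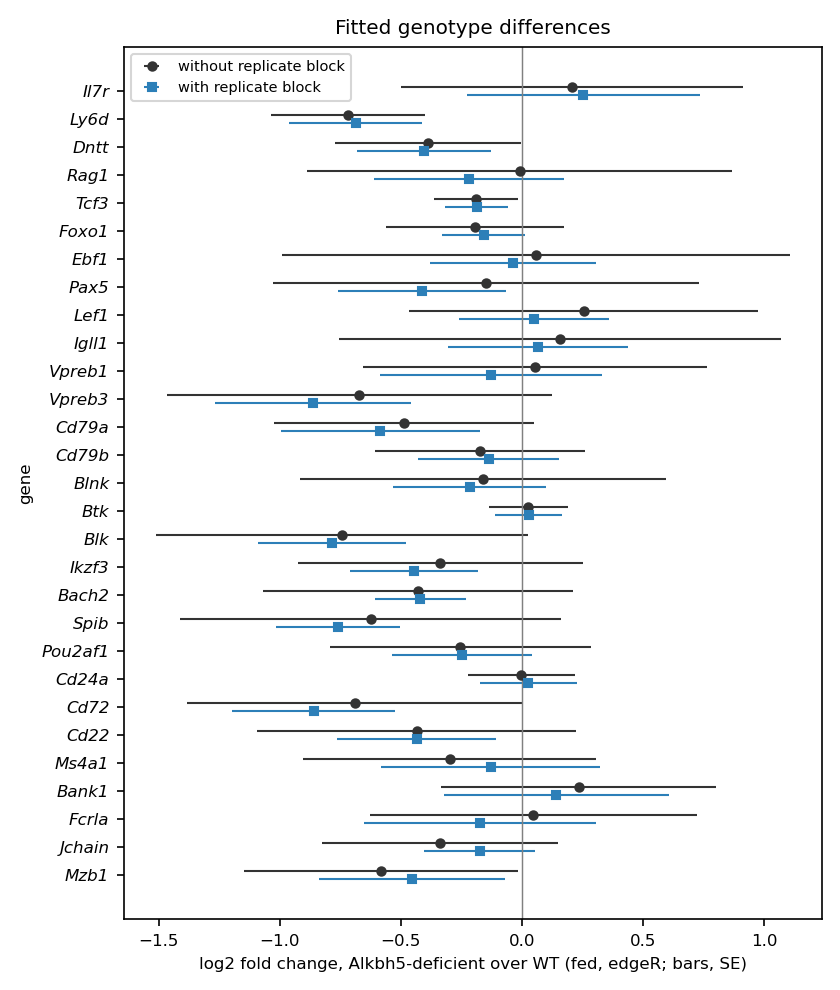
Fitted log2 fold change of each of the 29 tested members, Alkbh5-deficient over WT in the fed libraries, with the standard error as bars; black circles are the fit without, blue squares the fit with, the replicate number as a block. Most points lie left of 0, from -0.74 for Blk to 0.25 for Lef1 without the block, and no member passed the adjusted threshold in either fit.

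The pairs did not lean the same way. The median difference of the 29 members (deficient minus WT, log2 CPM with a prior count of 2) was -1.0 in fed pair 1, where 27 of 29 members were lower in the deficient library. In pair 2 it was -0.452, with 23 of 29 lower. In fed pair 3 it was 0.387, with 20 of 29 higher. All genes had medians of 0.022, -0.001 and -0.006 in these pairs. WT fed library 3, of pair 3, was the most extreme fed library over all genes tested. It was the highest of the 6 for 28.5% of them and the lowest for 27.8%. Its part in the direction of pair 3 was not tested. The unlabelled pair had a median of -0.280, with 24 of 29 lower and a median of 0.013 over all genes. Lower in pairs 1 and 2 and higher in pair 3 was the commonest pattern, held by 16 members (55.2%, beside 11.5% of all genes tested). It included Rag1, Ebf1, Pax5, Cd79a, Cd79b, Blnk, Ikzf3 and Jchain. A further 6 members, Ly6d, Tcf3, Vpreb3, Blk, Bach2 and Spib, were lower in all 3 pairs (20.7%, beside 11.5% of all genes), and Btk alone was higher in all 3.

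**Figure D2:**
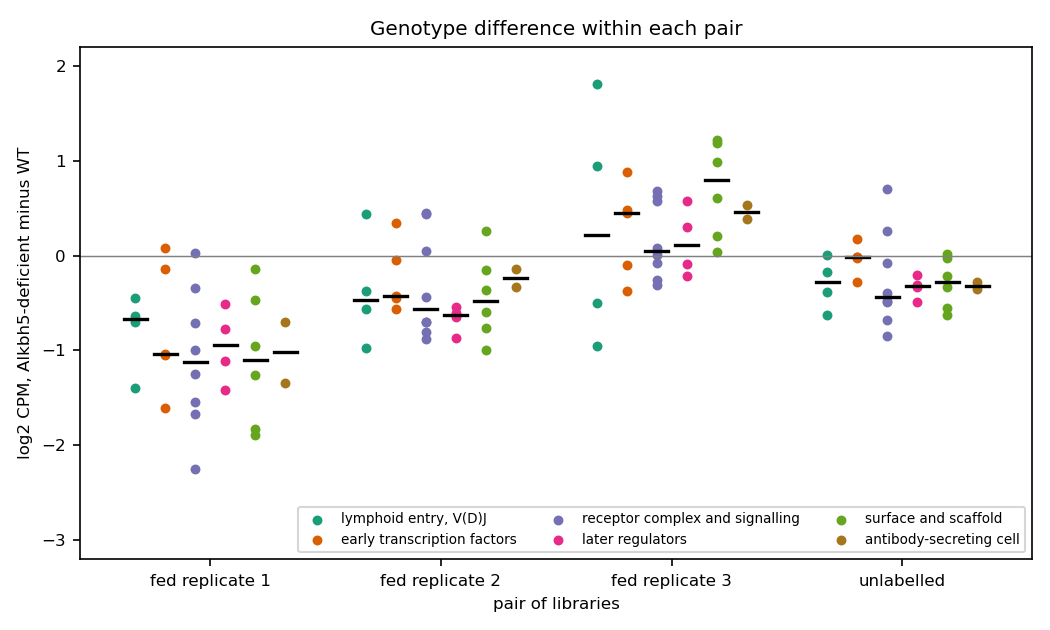
Difference in log2 CPM (Alkbh5-deficient minus WT, vertical axis) of each tested member in the 3 fed pairs and the unlabelled pair (horizontal axis), coloured by role; black bars are the median of each role. Most members lie below 0 in fed pairs 1 and 2 and in the unlabelled pair, and 20 of 29 lie above 0 in fed pair 3.

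The members also varied with the replicate number. Both libraries numbered 1 lay below all other fed libraries for 20 of 29 members, a pattern found in 19.2% of all genes tested, and above them for Btk alone (22.3% of all genes). Within genotypes the median SD of log2 CPM among the 3 fed libraries was 0.956 (WT) and 1.21 (deficient) for the members, against 0.325 and 0.248 for all genes. WT fed library 2 was the highest of the 6 for 21 members (11.9% of all genes), and deficient fed library 1 was the lowest for 23 (20.3% of all genes). Relative to the mean of libraries 2 and 3, library 1 was lower by a median log2 difference of -0.999 in WT and -2.08 in the deficient cells. Over all genes these medians were 0.00783 in WT and 0.0263 in the deficient cells. The larger drop of the members in the deficient cells compares 1 library per genotype and was not tested.

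The replicate number was then tested as a term in the blocked edgeR fit, a test chosen after these values were seen. It called 3 of 29 members where 0.637% of all genes were called: Ebf1 (adjusted p = 0.0334), Spib (0.0323) and Bach2 (0.0236). A further 7 members, Igll1, Blk, Pax5, Blnk, Lef1, Rag1 and Ikzf3, had adjusted p between 0.055 and 0.0612, and 21 of 29 had an unadjusted p under 0.05 (18.3% of all genes). DESeq2's likelihood ratio test called 16 members (4.86% of all genes), and edgeR without the low-count filter called 24 (7.03%). Without both libraries numbered 1, edgeR called 1 member, Jchain (0.344% of all genes). Without those numbered 3 it called 24 (22.4%), and without those numbered 2 it called 15 (7.62%). With any one fed library left out, on 1 residual degree of freedom, the count lay between 8 members (without deficient library 1, where 1.99% of all genes were called) and 27 (without deficient library 3, 30.1% of all genes). The share of all genes in those 6 fits ran from 1.77% to 30.1%. The pattern moved together with other features of the libraries numbered 1. The 8 neutrophil and monocyte genes were all higher in both of them than in the other fed libraries, with sums of 11460 (WT) and 11190 CPM (deficient) against 5869 to 7369 CPM, and 5 of 6 erythroid genes were lowest there. Their sums of 64.6 and 48.8 CPM compare with 100.3 to 173 CPM in the other fed libraries. The part of culture makeup, of the share of reads in no gene and of the Xist and Ddx3y difference in the members' pattern was not tested.

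**Figure D3:**
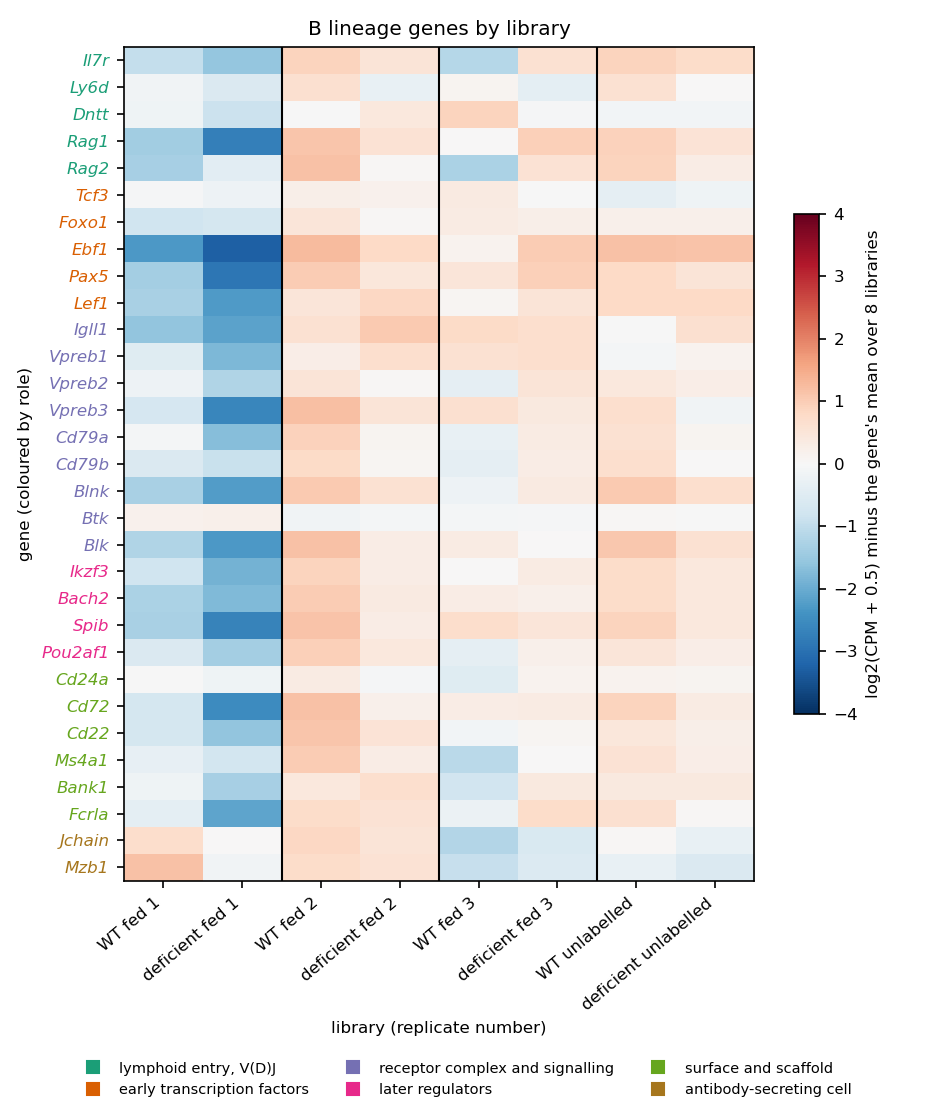
Level of each of the 31 members (rows, names coloured by role) in each of the 8 libraries (columns, fed pairs side by side), as log2(CPM + 0.5) minus the gene's mean over the 8 libraries; blue is lower and red higher. Both fed libraries numbered 1 are blue for most rows, with the deficient one darker, while Btk, Tcf3 and Cd24a are pale throughout and Jchain and Mzb1 are bluest in WT fed library 3.

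Among the genes of lymphoid entry and V(D)J recombination, 4 of 5 were tested, none passed, and the median log2 fold change between genotypes was -0.198. Ly6d, a surface protein that marks lymphoid progenitors committed to the B lineage (ENSMUSG00000034634.7, chr15:74762056-74763620, minus strand, GRCm38), stood at 5.83, 10.5 and 6.995 CPM in WT fed libraries 1, 2 and 3, at 4.19, 5.201 and 4.88 CPM in the deficient ones, and at 10.2 (WT) and 6.54 CPM (deficient) without label. All 3 deficient fed libraries lay below all 3 WT ones, which made Ly6d the only member whose fed groups did not overlap (3.06% of all genes were lower in this way and 2.62% higher). Means were 7.77 ± 2.43 CPM in WT and 4.76 ± 0.517 CPM in deficient fed libraries (SD, n = 3 each), and the log2 fold change was -0.72 ± 0.32 (SE), with an unadjusted p of 0.0526 and an adjusted p of 1 in edgeR. With the block it was -0.69 ± 0.27 (SE). The counts behind these levels were small, 28 to 91 per library.

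Rag1, the catalytic subunit of the recombinase (ENSMUSG00000061311.6, chr2:101638282-101649501, minus strand), stood at 10.3, 60.99 and 28.2 CPM in WT fed libraries 1, 2 and 3, at 3.74, 41.3 and 54.3 CPM in the deficient ones, and at 53.01 (WT) and 40.7 CPM (deficient) without label. Libraries 1 were lowest in both genotypes, at 23.2% (WT) and 7.82% (deficient) of the mean of libraries 2 and 3, and the genotypes overlapped throughout. Its genotype log2 fold change was -0.009 ± 0.88 (SE), with pair differences of -1.40, -0.56 and 0.94 in log2 CPM. Rag2, its partner, had only 1 to 28 counts per library and was not tested. Il7r, the interleukin-7 receptor alpha chain, was found at 4.33, 16.7 and 3.69 CPM in WT fed libraries 1, 2 and 3, at 2.69, 12.9 and 13.6 CPM in the deficient ones, and at 16.9 (WT) and 14.9 CPM (deficient) without label. Here WT library 3 was as low as both libraries 1, so its pair difference of 1.81 log2 CPM was the largest upward one of any tested member, and the fitted genotype log2 fold change was 0.21 ± 0.71 (SE). Dntt, the polymerase that adds untemplated bases at V(D)J joints, was measured at 22.8, 25.4 and 47.8 CPM in WT fed libraries 1, 2 and 3, at 13.9, 34.5 and 24.5 CPM in the deficient ones, and at 23.6 (WT) and 23.8 CPM (deficient) without label. Its highest value was in WT library 3 and its lowest in deficient library 1, and its log2 fold change of -0.39 ± 0.38 (SE) was about the size of its error.

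All 5 early B lineage transcription factors were lowest in both libraries numbered 1, and their median log2 fold change between genotypes was -0.149 with none called. Ebf1, the pioneer factor of B lineage commitment (ENSMUSG00000057098.14, chr11:44617317-45008091, plus strand), stood at 3.996, 52.3 and 23.9 CPM in WT fed libraries 1, 2 and 3, at 1.796, 38.2 and 44.2 CPM in the deficient ones, and at 49.6 (WT) and 48.6 CPM (deficient) without label. The libraries numbered 1 were at 10.5% (WT) and 4.36% (deficient) of the mean of libraries 2 and 3, and the highest fed library exceeded the lowest 29.2-fold. Between genotypes the means were 26.8 ± 24.3 CPM in WT and 28.1 ± 22.9 CPM in deficient fed libraries (SD, n = 3 each), with a log2 fold change of 0.058 ± 1.05 (SE). Pax5, the factor that keeps cells in the B lineage (ENSMUSG00000014030.15, chr4:44524757-44710487, minus strand), was present at 9.66, 52.8 and 35.9 CPM in WT fed libraries 1, 2 and 3, at 2.99, 35.6 and 50.2 CPM in the deficient ones, and at 45.1 (WT) and 37.2 CPM (deficient) without label. It followed the order of Ebf1, with libraries 1 at 21.8% and 6.98% of the mean of the others in WT and deficient cells and a genotype log2 fold change of -0.15 ± 0.88 (SE).

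Foxo1, which activates Il7r and Rag genes, was counted at 22.3, 54.9 and 49.6 CPM in WT fed libraries 1, 2 and 3, at 23.6, 40.9 and 46.3 CPM in the deficient ones, and at 45.5 (WT) and 44.9 CPM (deficient) without label. The libraries numbered 1 were again lowest, but at 22.3 and 23.6 CPM they were nearly equal between genotypes, and the log2 fold change was -0.19 ± 0.37 (SE). Lef1, a Wnt pathway factor of pro-B and T cells, was detected at 5.83, 21.3 and 15.9 CPM in WT fed libraries 1, 2 and 3, at 2.69, 27.1 and 21.8 CPM in the deficient ones, and at 26.6 (WT) and 26.3 CPM (deficient) without label. It had the largest positive fitted difference of the members, 0.25 ± 0.72 (SE) on the log2 scale, well inside its error. Tcf3, which encodes the E2A proteins, stood at 226, 273 and 301 CPM in WT fed libraries 1, 2 and 3, at 205, 265 and 233 CPM in the deficient ones, and at 183 (WT) and 207 CPM (deficient) without label. This gene varied little, 1.47-fold from lowest to highest fed library, with a genotype log2 fold change of -0.19 ± 0.17 (SE) and the deficient library lower in all 3 fed pairs but higher in the unlabelled pair.

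**Figure D4:**
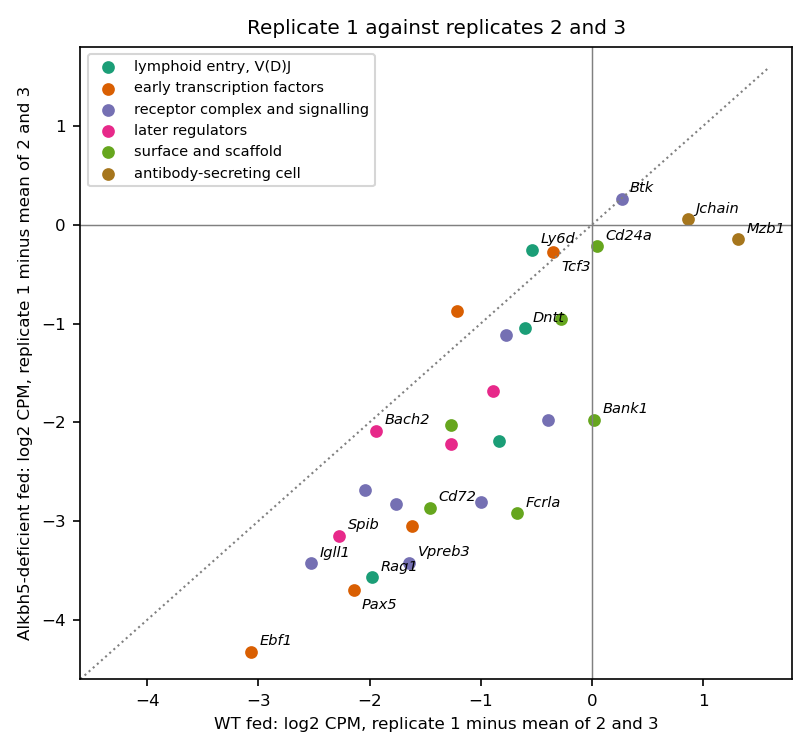
Library 1 minus the mean of libraries 2 and 3 in log2 CPM, for WT fed (horizontal axis) and Alkbh5-deficient fed cells (vertical axis), for each tested member coloured by role; the dotted line marks equal shifts. Ebf1, Pax5, Rag1, Spib and Igll1 lie far down and left, most members lie below the dotted line, and Btk, Cd24a, Jchain and Mzb1 lie near or right of 0.

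The surrogate light chain genes are the most stage-restricted members, since they are made mainly in pro-B and early pre-B cells. Vpreb1 (ENSMUSG00000059305.12, chr16:16868403-16870843, minus strand) and Vpreb2 (ENSMUSG00000059280.4, chr16:17980428-17981273, plus strand) encode nearly the same protein, and their coding sequences (GENCODE M21) of 426 bases differ at 9 positions, for 97.89% identity and a longest shared run of 196 bases. Bases 298 to 387 of both, the stretch of that length with the most differing bases, read as follows with the differing bases in capitals:
Vpreb1: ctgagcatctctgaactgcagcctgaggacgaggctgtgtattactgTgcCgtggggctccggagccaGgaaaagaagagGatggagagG
Vpreb2: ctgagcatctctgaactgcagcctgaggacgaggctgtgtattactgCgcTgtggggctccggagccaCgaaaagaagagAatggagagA
Their counts are therefore uncertain, since a read from a shared stretch could have been dropped or given to either gene. Vpreb1 had 3 to 38 counts per library and Vpreb2 0 to 10, and Vpreb2 was not tested. Igll1 (ENSMUSG00000075370.12, chr16:16860671-16863985, minus strand), encoding the lambda 5 chain that pairs with Vpreb, had 2 to 49 counts per library. In both genotypes Igll1 and Vpreb1 had their lowest level in library 1, and their genotype log2 fold changes were 0.16 ± 0.91 (SE) and 0.052 ± 0.71 (SE).

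Vpreb3, a relative that binds heavy chains inside the cell, was measured at 3.16, 12.8 and 8.55 CPM in WT fed libraries 1, 2 and 3, at 0.449, 7.802 and 7.13 CPM in the deficient ones, and at 8.81 (WT) and 4.795 CPM (deficient) without label. Its deficient library 1 rested on 3 counts, and its log2 fold change was -0.67 ± 0.80 (SE). Cd79a and Cd79b, the signalling chains of the receptor, are needed at every stage from pro-B cell to mature B cell. Cd79a stood at 12.5, 25.5 and 10.7 CPM in WT fed libraries 1, 2 and 3, at 3.74, 14.5 and 16.7 CPM in the deficient ones, and at 20.5 (WT) and 14.5 CPM (deficient) without label. The lowest library was deficient 1, and WT libraries 1 and 3 were close to each other at 12.5 and 10.7 CPM. Cd79b was counted at 12.8, 32.97 and 14.8 CPM in WT fed libraries 1, 2 and 3, at 10.03, 20.3 and 23.9 CPM in the deficient ones, and at 30.98 (WT) and 19.3 CPM (deficient) without label. Both libraries 1 were lowest, at 53.7% and 45.4% of the mean of the others in WT and deficient cells, and the genotype log2 fold changes were -0.49 ± 0.54 (SE) for Cd79a and -0.17 ± 0.44 (SE) for Cd79b.

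Of the proximal signalling genes, Blk, a Src family kinase of B cells, was found at 2.497, 15.1 and 8.16 CPM in WT fed libraries 1, 2 and 3, at 0.898, 8.08 and 6.51 CPM in the deficient ones, and at 14.1 (WT) and 10.03 CPM (deficient) without label. It was lower in the deficient library in all 4 pairs, and its log2 fold change of -0.74 ± 0.77 (SE) was the most negative of the members. With the replicate block it was -0.78 ± 0.31 (SE), with an unadjusted p of 0.0348 and an adjusted p of 0.939. Blnk, the adaptor that links the receptor to calcium signalling, was present at 5.66, 31.01 and 12.6 CPM in WT fed libraries 1, 2 and 3, at 2.69, 22.9 and 19.02 CPM in the deficient ones, and at 30.98 (WT) and 23.5 CPM (deficient) without label. Libraries 1 were lowest and the unlabelled libraries as high as fed libraries 2, with a genotype log2 fold change of -0.16 ± 0.76 (SE). Btk, the kinase mutated in X-linked agammaglobulinaemia (ENSMUSG00000031264.13, chrX:134542336-134583570, minus strand), stood at 65.1, 52.8 and 55.4 CPM in WT fed libraries 1, 2 and 3, at 66.4, 54.8 and 55.8 CPM in the deficient ones, and at 60.01 (WT) and 57 CPM (deficient) without label. It was the one member highest in both libraries numbered 1, its fed range was 1.26-fold, and its genotype log2 fold change was 0.026 ± 0.16 (SE).

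The later regulators, factors of the pre-B to mature B cell stages, had a median log2 fold change of -0.384, with 4 of 4 below 0 and none called. Spib, an Ets factor of B cells and plasmacytoid dendritic cells (ENSMUSG00000008193.13, chr7:44525993-44532071, minus strand), was counted at 7.66, 44.5 and 32.5 CPM in WT fed libraries 1, 2 and 3, at 2.69, 24.2 and 27.9 CPM in the deficient ones, and at 37.3 (WT) and 26.5 CPM (deficient) without label. It was lower in the deficient library in all 4 pairs, while the fed groups overlapped because of WT library 1. The genotype log2 fold change was -0.63 ± 0.79 (SE) and, with the block, -0.76 ± 0.26 (SE), the smallest unadjusted p of any member (0.019, adjusted p = 0.939). Bach2, a repressor that delays plasma cell formation (ENSMUSG00000040270.16, chr4:32238804-32586108, plus strand), stood at 13.99, 69.98 and 42.4 CPM in WT fed libraries 1, 2 and 3, at 9.73, 44.5 and 39.9 CPM in the deficient ones, and at 57.8 (WT) and 46.4 CPM (deficient) without label. Its libraries 1 were at 24.9% (WT) and 23.1% (deficient) of the mean of the others, so the shift was alike in the genotypes. The log2 fold change of Bach2 was -0.43 ± 0.64 (SE).

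Ikzf3, the Ikaros relative Aiolos, was detected at 27.1, 88.7 and 48.4 CPM in WT fed libraries 1, 2 and 3, at 12.4, 58.2 and 59.7 CPM in the deficient ones, and at 79.97 (WT) and 63.8 CPM (deficient) without label. Both libraries 1 were lowest, WT library 2 was highest, and the log2 fold change was -0.34 ± 0.59 (SE). Pou2af1, a coactivator of octamer-binding factors at immunoglobulin promoters, was present at 12.5, 37.4 and 14.6 CPM in WT fed libraries 1, 2 and 3, at 7.18, 25.6 and 21.8 CPM in the deficient ones, and at 26.7 (WT) and 23.1 CPM (deficient) without label. WT library 3 lay near WT library 1, and the log2 fold change was -0.25 ± 0.54 (SE). Spib is also a gene of plasmacytoid dendritic cells, and 9 others of that cell type summed to 195 to 249.4 CPM in the 8 libraries, a sum in which Runx2 and Tcf4 are the highest. Both libraries 1 were lowest for 1 of the 8 tested, Tcf4 (19.2% of all genes), at 67.9% (WT) and 62.4% (deficient) of the mean of libraries 2 and 3. Siglech was lowest in library 1 within each genotype, at 73.7% and 43.3% of that mean, whereas Lair1 was highest in both libraries 1. The part of these cells in the level of Spib was not tested.

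The promoters of Igll1, Vpreb1 and Spib are shown as sequence examples from RefSeq (GRCm38.p6). Each window runs from 250 bases before to 50 after the start site and is printed along the gene's strand. These genes are among the 20 of 29 tested members that were lowest in both libraries numbered 1. The search was for 4 motifs on both strands: CCCNNGGG, the core bound by Ebf1, CAGGTG and CAGCTG, E-boxes bound by Tcf3 proteins, and TGGGAA, the Ikaros core. Capitals mark the matches.
Igll1, chr16:16863936-16864235, minus strand: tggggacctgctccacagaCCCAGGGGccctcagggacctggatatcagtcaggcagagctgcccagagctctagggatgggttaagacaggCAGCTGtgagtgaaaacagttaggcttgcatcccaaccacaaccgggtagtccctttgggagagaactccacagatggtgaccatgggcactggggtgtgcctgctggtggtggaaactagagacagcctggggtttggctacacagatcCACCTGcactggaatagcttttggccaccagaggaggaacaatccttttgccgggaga
Vpreb1, chr16:16869206-16869505, minus strand: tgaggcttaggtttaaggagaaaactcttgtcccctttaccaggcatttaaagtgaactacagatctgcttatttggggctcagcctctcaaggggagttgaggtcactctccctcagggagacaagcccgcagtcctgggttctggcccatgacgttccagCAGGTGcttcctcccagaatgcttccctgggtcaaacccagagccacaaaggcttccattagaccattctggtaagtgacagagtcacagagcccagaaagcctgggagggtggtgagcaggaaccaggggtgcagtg
Spib, chr7:44532022-44532321, minus strand: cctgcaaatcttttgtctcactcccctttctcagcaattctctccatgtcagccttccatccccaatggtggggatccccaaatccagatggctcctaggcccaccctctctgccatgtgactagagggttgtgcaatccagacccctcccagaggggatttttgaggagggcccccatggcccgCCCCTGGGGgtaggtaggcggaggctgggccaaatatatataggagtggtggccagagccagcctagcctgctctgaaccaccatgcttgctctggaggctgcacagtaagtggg
In the Igll1 window, CCCNNGGG matched 231 bases, CAGCTG 158 bases and CAGGTG (as its reverse complement) 8 bases before the start. The Vpreb1 window held CAGGTG 88 bases before it, and the Spib window held overlapping CCCNNGGG matches starting 65 and 64 bases before it. Of the 31 members, 24 had promoters in the table (28 windows). CAGGTG was in 39.3% of member windows and in 20.2% of 32851 windows of all genes. For CCCNNGGG the shares were 17.9% and 13.7%, for CAGCTG 14.3% and 16.3%, and for TGGGAA 28.6% and 25.6%. Other members lowest in both libraries numbered 1, such as Pax5, Tcf3, Dntt and Pou2af1, had no match to any of the 4 motifs. The matches describe letters in a window and were not tested.

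Among the surface and scaffold genes, the median log2 fold change was -0.151 and none of 6 was called. Cd72, an inhibitory coreceptor, was found at 13.5, 50.96 and 27.4 CPM in WT fed libraries 1, 2 and 3, at 3.44, 25.5 and 28.2 CPM in the deficient ones, and at 41.4 (WT) and 28.1 CPM (deficient) without label. Deficient values lay below WT in pairs 1 and 2 and in the unlabelled pair and were nearly equal in pair 3, with a log2 fold change of -0.69 ± 0.70 (SE). Cd22, a sialic acid-binding inhibitory receptor, was counted at 3.16, 12.6 and 5.05 CPM in WT fed libraries 1, 2 and 3, at 1.496, 8.21 and 5.88 CPM in the deficient ones, and at 7.65 (WT) and 6.54 CPM (deficient) without label, with a log2 fold change of -0.44 ± 0.66 (SE). Fcrla, an Fc receptor-like protein that stays inside B cells, stood at 5.99, 13.8 and 6.8 CPM in WT fed libraries 1, 2 and 3, at 1.496, 12.5 and 13.8 CPM in the deficient ones, and at 12.96 (WT) and 8.28 CPM (deficient) without label. Its WT libraries 1 and 3 were close together, whereas deficient library 1 alone was low, and the log2 fold change was 0.047 ± 0.67 (SE).

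Bank1, a scaffold of receptor signalling, was measured at 4.66, 7.15 and 2.91 CPM in WT fed libraries 1, 2 and 3, at 1.796, 8.62 and 7.13 CPM in the deficient ones, and at 6.999 (WT) and 7.08 CPM (deficient) without label. WT library 3 and deficient library 1 were its low points, and the log2 fold change was 0.23 ± 0.57 (SE). Ms4a1, which encodes CD20 of mature B cells, had 8 to 72 counts per library and a log2 fold change of -0.30 ± 0.61 (SE). Cd24a was present at 307, 391 and 225 CPM in WT fed libraries 1, 2 and 3, at 278, 304 and 343 CPM in the deficient ones, and at 342 (WT) and 337 CPM (deficient) without label. Its levels varied 1.74-fold among the fed libraries with no low value in either library 1, and its log2 fold change was -0.0031 ± 0.22 (SE). All 6 genes of this group were higher in the deficient library of pair 3 and lower in that of pair 1.

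The antibody-secreting cell genes departed from the pattern of the progenitor genes. Jchain (ENSMUSG00000067149.6, chr5:88519809-88527891, minus strand) stood at 714, 787 and 196 CPM in WT fed libraries 1, 2 and 3, at 440, 626 and 285 CPM in the deficient ones, and at 452 (WT) and 354 CPM (deficient) without label. Library 3 was lowest in both genotypes, and the libraries numbered 1 were at 145% (WT) and 96.7% (deficient) of the mean of the others. Jchain had a genotype log2 fold change of -0.34 ± 0.49 (SE). Mzb1, a chaperone of antibody assembly, was counted at 10.7, 7.73 and 2.14 CPM in WT fed libraries 1, 2 and 3, at 4.04, 6.98 and 2.88 CPM in the deficient ones, and at 3.5 (WT) and 2.83 CPM (deficient) without label, again with library 3 lowest in both genotypes, and had a log2 fold change of -0.58 ± 0.56 (SE). Between 25 and 75 reads per library were deposited as shared between Mzb1 and Gm50318, against 11 to 67 counts given to Mzb1, so its level is uncertain. The sum over 6 immunoglobulin constant genes was also lowest in library 3 of each genotype, at 1791 (WT) and 1271 CPM (deficient). Libraries 1 and 2 were at 3501 and 2870 CPM in WT and at 2282 and 3270 CPM in deficient cells. Of the 6 genes, Ighd alone was lowest in both libraries 1, at 0.999 (WT) and 0.449 CPM (deficient). The plasma cell list of 6 genes summed to 429 to 636 CPM, a sum in which Xbp1 and Txndc5 are the highest. Their means over 8 libraries were 294 and 142 CPM, beside 39.4 for Prdm1, 16.8 for Sdc1, 3.03 for Derl3 and 1.2 CPM for Tnfrsf17.

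Other genes of the same pathways did not pass the genotype test either. Of 24 further B lineage genes 22 were tested and 0 were called, with a median log2 fold change of 0.0593 and 14 above 0. The smallest unadjusted p belonged to Cd180, a Toll-like receptor relative (0.64 ± 0.36 (SE)), Runx1 (0.28 ± 0.16 (SE)) and Cd37, a tetraspanin (-0.26 ± 0.15 (SE)), on the log2 scale. Of 15 genes of the receptor's signalling relay 0 were called, with a median of 0.0622, and the inhibitory adaptor Dok3 (-0.23 ± 0.14 (SE)), the NF-kappaB pathway protease Malt1 (0.40 ± 0.24 (SE)) and the kinase Lyn (0.36 ± 0.27 (SE)) had the smallest unadjusted p. Of 9 interleukin-7 signalling genes 0 were called, with a median of -0.105 and 8 below 0. Jak3, the kinase bound to the receptor's common gamma chain, was at -0.46 ± 0.25 (SE), Crlf2 at -0.21 ± 0.26 (SE) and Stat5a at -0.14 ± 0.19 (SE). Of 10 genes of V(D)J end joining 0 were called, with a median of 0.0803. The end-binding protein Xrcc6 was at -0.35 ± 0.21 (SE), Hmgb1 at 0.20 ± 0.18 (SE) and the ligase partner Xrcc4 at -0.30 ± 0.27 (SE). No gene of these 4 lists had an unadjusted p under 0.05 in edgeR, and DESeq2 called none of them.

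The lists also differed from the members in the replicate pattern. Both libraries numbered 1 were lowest for 10 of 22 further B lineage genes, for 1 of 15 relay genes, for 0 of 9 interleukin-7 signalling genes and for 3 of 10 end joining genes, beside 20 of 29 members and 19.2% of all genes. Among T and NK cell genes it was 3 of 14. None of the 4 pathway lists had a gene called for replicate number by edgeR, while unadjusted p was under 0.05 for 9 of 22, 5 of 15, 0 of 9 and 2 of 10.

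Between the unlabelled libraries, 1 per genotype and thus without a replicate check, 24 of the 29 members were lower in the deficient cells, as were 46.8% of all genes tested. Intervals here cover counting error only and narrow with a gene's count. Those of 14 members lay wholly below 100% of the WT level (7.36% of all genes), among them Cd79b at 62.3% (95% interval 50.98 to 75.95%), Cd72 at 68% (95% interval 57.5 to 80.4%), Spib at 70.9% (95% interval 59.6 to 84.5%) and Rag1 at 76.7% (95% interval 66.5 to 88.5%). Ebf1 was at 97.9% (95% interval 85.2 to 113%) and Foxo1 at 98.7% (95% interval 85.4 to 114%). Tcf3 was the member whose interval lay above the WT level (9.55% of all genes), at 113% (95% interval 106 to 121%). Jchain was at 78.4% (95% interval 74.7 to 82.2%).

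Feeding with s4U was compared with no agent over all 8 libraries, with genotype in the fit. Of 30 members tested by edgeR 0 were called, where 0.0267% of 14988 genes were, and 0 had an unadjusted p under 0.05 (19.6% of all genes). DESeq2 called 0 members and 4.35% of all genes. The median log2 fold change (fed over unlabelled) was -0.367, with 24 of 30 below 0, beside 0.0267 over all genes. The smallest p was that of Tcf3, 0.35 ± 0.17 (SE) with an adjusted p of 0.284, and the antibody-secreting cell genes lay above 0 at 0.34 ± 0.46 (SE) for Jchain and 0.84 ± 0.55 (SE) for Mzb1. The unlabelled libraries held both Xist and Ddx3y RNA, and fed libraries had at most 2 counts of one of them, so feeding and the source of the cells cannot be told apart. The genotype by s4U interaction was called for 0 of 30 members and 0.0% of all genes by edgeR, with 0 members under an unadjusted p of 0.05 (0.16% of all genes), and for 0 members by DESeq2. Ebf1 had the widest standard error of the members, 2.13 on the log2 scale, with 1 unlabelled library per genotype.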

How the data were processed

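The authors deposited 1 table per library with whole-number read counts per gene, without normalization. HTSeq, HISAT2, STAR, cutadapt, Picard and DESeq2 are named in the submitters' processing notes with the builds mm10 and GRCm38. Their versions, and whether counting used strand, are not given in the sources read, so the 18 members that overlap another gene in GENCODE M21 may share reads with it. Converted bases were not analysed here. Entries that name no gene (37.6 to 52.1% in no gene, 0.65 to 0.98% in several) were left out of all totals and fits. The labels' treatment text names s4U for every sample, and the agent field gives none for the unlabelled ones, which was followed.

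Tests used edgeR 4.0.16 under R 4.3.3 (TMM scaling, default low-count filter by group, robust quasi-likelihood fits, Benjamini-Hochberg adjustment at 0.05), with genotype over the 6 fed libraries and s4U and interaction over all 8. DESeq2 1.42.0 was an alternative. The SE is the fold change divided by the root of F. CPM are TMM-scaled over 8 libraries, and log2 CPM used a prior count of 2. Deviations from the genotype mean correlated across genes between same-numbered libraries at 0.656, 0.340 and 0.203 for numbers 1, 2 and 3. Each is over 0.1, so the numbers, taken from the labels' titles, were treated as pairs. Libraries of unlike number correlated at 0.299 (WT 2 with deficient 3) and 0.280 (WT 3 with deficient 2), so pairs 2 and 3 are not set apart from each other, while the other 4 unlike pairings were below 0. The scripts were tested on simulated data with 200 changed genes. That simulation gave all genes the same small spread, had no replicate effect and changed only genes above a minimum mean count. It therefore does not measure power for the members, whose median SD of log2 CPM was 0.956 (WT fed) and 1.21 (deficient fed). Unlabelled ratios carry 95% exact binomial intervals.

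Members and lists were chosen with earlier results of these data known. Members averaging at least 5 CPM over 8 libraries are given in every library, the others by counts, and up to 3 genes with the smallest unadjusted p per pathway list are named.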

Additional observations from a re-analysis of the deposited data

How the results depend on the processing

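No alternative changed the count of 0 members called between genotypes, for s4U or for the interaction. The median log2 fold change of the members was between -0.232 and -0.183 under other tools, filters, scalings and fits that kept all fed libraries. With libraries left out it was between -0.60 and 0.21. It was above 0 without WT fed replicate 2 (0.21) or deficient fed replicate 1 (0.059). With the replicate block and without both libraries numbered 1 it was 0.0115. Of 493 refitted member values 79 had the opposite sign and none passed the threshold, while 6 members (Ly6d, Tcf3, Vpreb3, Blk, Spib and Cd72) kept their sign throughout. Among the alternatives that kept all fed libraries, log2 fold changes turned without the low-count filter for Rag1 (0.0027) and Cd24a (0.0049), in DESeq2 for Rag1 (0.0016) and Cd24a (0.0039), with RLE size factors for Cd24a (0.00401) and in an additive fit over 8 libraries for Fcrla (-0.13). With the replicate block they turned for Ebf1 (-0.038), Vpreb1 (-0.13), Cd24a (0.026) and Fcrla (-0.17). With the block and without both libraries numbered 1, a choice made after seeing the data, they turned for Rag1 (0.18), Blnk (0.0499), Cd24a (0.12), Ms4a1 (0.0600), Jchain (0.099) and Mzb1 (0.084). Where leaving out 1 fed library or 1 pair turned the log2 fold change, its range over these was as follows: Il7r -0.45 to 1.28, Dntt -0.85 to 0.017, Rag1 -0.67 to 0.80, Foxo1 -0.50 to 0.051, Ebf1 -0.50 to 1.03, Pax5 -0.77 to 0.40, Lef1 -0.23 to 0.76, Igll1 -0.40 to 0.69, Vpreb1 -0.30 to 0.56, Cd79a -1.06 to 0.015, Cd79b -0.60 to 0.40, Blnk -0.60 to 0.72, Btk -0.061 to 0.12, Ikzf3 -0.72 to 0.21, Bach2 -0.85 to 0.17, Pou2af1 -0.61 to 0.44, Cd24a -0.26 to 0.23, Cd22 -0.91 to 0.36, Ms4a1 -0.72 to 0.65, Bank1 -0.18 to 0.66, and Fcrla -0.51 to 0.54. The cause of these turns was not tested. For replicate number, the count of 3 members became 24 without the low-count filter, 16 in DESeq2 and 1 to 27 with libraries left out, while the share of all genes called went from 0.637% to 7.03%, 4.86% and 0.344 to 30.1%. The cause of that was not tested, beyond the fewer samples in the last. Pairing with the replicate block changed no call (0 members). Low counts limit Rag2, Vpreb1, Vpreb2, Igll1 and Ms4a1, the last 4 with at most 72 counts in a library.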
